A study of Mus musculus with 4 samples.

Results

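The genes described here encode the machinery by which a cell shows peptides on MHC class I molecules, together with the immunoproteasome, which cuts many of those peptides. They are 10 genes, chosen by name, on arrays that measured 19938 genes with at least 1 unshared probe set: the class I heavy chains *H2-K1* and *H2-D1*, the light chain *B2m*, the peptide transporter genes *Tap1* and *Tap2*, the loading factor *Tapbp*, the immunoproteasome subunits *Psmb8*, *Psmb9* and *Psmb10*, and the class I transactivator *Nlrc5*. The platform annotation named a member in 30 rows of the value table. For each gene the brightest row that named it alone was used, which gave a level of its own for 8 of the 10 members. *H2-K1* and *H2-D1* occurred only together, in 2 rows that name both genes and the locus *LOC547349*, and a level of either gene alone was not measured.

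The arrays compared 2 ways of priming CD8+ T cells of wild-type C57BL/6 mice, with 2 arrays per group and 4 in all. Cells from spleen and lymph node, described in the study design as naive, were obtained by magnetic negative selection and kept in culture for 2 days. Both cultures contained IL-2 and an antibody that blocks IFN-γ, so the controls carried this blockade as well. No further cytokine is named for the CTL (cytotoxic T lymphocyte) cultures, and the Tc17 cultures received IL6 and TGF-b in addition. The study's methods for murine Tc17 cells also name stimulating antibodies to CD3 and CD28. The labels call the arrays biological replicates but do not tie them to separate animals or state an age, and the p-values therefore concern these samples only. Values are RMA intensities, taken as log2, in which a difference of 1 is a 2-fold change. Each difference is Tc17 minus CTL and is given ± its standard error from limma. This error blends the spread of a gene's own replicates with a spread estimated from all tested genes. The latter weighs more (8.98 prior against 2 residual degrees of freedom). The error and the p-value are therefore not measures of that gene's replicates alone.

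Class I molecules present peptides from the inside of the cell to CD8+ T cells, and T cells carry them too. The proteasome cuts proteins into peptides, the TAP transporter moves these into the endoplasmic reticulum, and tapasin with other chaperones loads them onto a heavy chain paired with beta-2 microglobulin. Interferons, above all IFN-γ, are the known inducers of this pathway. They raise the immunoproteasome subunits, which take the places of the constitutive catalytic subunits, and NLRC5, which drives transcription of the class I genes from their promoters.

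Promoters are shown because the members are known to share regulatory elements and because 2 of them, *Psmb9* and *Tap1*, share a promoter. RefSeq windows from 250 bases before to 50 after the start site (build GRCm38.p6) were found for 8 of the 10 members. *Nlrc5* and *Tap2* had none. Capitals mark every match to the 4 motifs searched on both strands, and no 2 of these matches overlap. The *Tap1* window, chr17:34187306-34187605 on the plus strand, is also most of the *Psmb9* promoter, since the 2 genes are read away from each other from start sites 226 bases apart and their windows share 275 bases. The others are *Psmb8* at chr17:34197945-34198244 (plus strand), *B2m* at chr2:122147437-122147736 (plus strand), *H2-K1* at chr17:34000298-34000597 (minus strand) and *H2-D1* at chr17:35262844-35263143 (plus strand).
Tap1: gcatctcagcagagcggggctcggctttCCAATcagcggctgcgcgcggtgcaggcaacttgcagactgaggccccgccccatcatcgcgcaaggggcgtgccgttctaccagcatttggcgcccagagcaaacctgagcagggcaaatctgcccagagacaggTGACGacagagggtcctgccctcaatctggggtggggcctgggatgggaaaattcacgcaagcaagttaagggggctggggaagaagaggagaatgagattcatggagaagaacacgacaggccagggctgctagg
Psmb8: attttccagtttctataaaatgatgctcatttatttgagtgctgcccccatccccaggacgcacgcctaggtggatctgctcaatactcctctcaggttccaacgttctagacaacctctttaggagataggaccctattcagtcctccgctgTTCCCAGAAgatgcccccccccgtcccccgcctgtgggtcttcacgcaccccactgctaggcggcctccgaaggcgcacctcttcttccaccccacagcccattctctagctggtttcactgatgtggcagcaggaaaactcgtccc
B2m: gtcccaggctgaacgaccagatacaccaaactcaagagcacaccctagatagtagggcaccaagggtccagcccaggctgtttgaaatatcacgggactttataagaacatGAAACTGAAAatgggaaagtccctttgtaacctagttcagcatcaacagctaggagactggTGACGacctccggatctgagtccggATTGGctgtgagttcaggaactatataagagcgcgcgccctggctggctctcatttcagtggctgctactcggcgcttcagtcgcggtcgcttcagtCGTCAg
H2-K1: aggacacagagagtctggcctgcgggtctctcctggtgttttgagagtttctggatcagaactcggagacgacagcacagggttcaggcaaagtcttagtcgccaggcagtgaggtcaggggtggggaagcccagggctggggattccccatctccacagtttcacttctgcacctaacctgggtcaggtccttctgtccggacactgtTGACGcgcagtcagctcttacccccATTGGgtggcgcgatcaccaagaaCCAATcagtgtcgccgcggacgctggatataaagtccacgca
H2-D1: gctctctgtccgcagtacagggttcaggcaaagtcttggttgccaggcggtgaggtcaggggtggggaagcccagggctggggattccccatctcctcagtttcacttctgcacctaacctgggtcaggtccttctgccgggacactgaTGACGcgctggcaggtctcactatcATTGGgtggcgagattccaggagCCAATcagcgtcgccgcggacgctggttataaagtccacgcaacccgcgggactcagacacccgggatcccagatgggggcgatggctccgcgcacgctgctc
The motif TGACG, part of the cAMP response element, occurred in the windows of 5 of the 8 members (*B2m*, *H2-K1*, *H2-D1*, *Tap1* and *Psmb9*) and in 20.8% of all 32817 windows. CCAAT occurred in 6 of the 8, those 5 and *Tapbp*, and in 37.4% of all windows. For both motifs the *Tap1* and *Psmb9* matches are the same site read from opposite strands, so the members' windows are not all separate. An exact match to the core of the interferon response element, GAAA, any 2 bases and GAAA again, was found in *B2m* only. It was found in 3.43% of all windows. Near matches were not counted, such as tttcacttct in both the *H2-K1* and the *H2-D1* window, close to that core on the other strand. The STAT motif TTCNNNGAA was found in *Psmb8* only, and in 8.29% of all windows. A match is a description of letters, not a bound site. The *H2-K1* and *H2-D1* windows aligned over 239 columns, of which 211 (88.3%) were identical, and their shared rows on the array name both genes.

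The arrays carried CD8+ T cell transcripts. *Cd8a*, *Cd8b1* and the CD3 genes lay between 7.93 and 10.66 on each array. *Cd4* was at 2.83 to 3.28, near the level of 2.59 below which genes were left out as dim. Correlations across the 14953 tested genes were 0.993 within each group and 0.967 to 0.973 between groups, with genes not being independent replicates. In limma, 15.7% of the tested genes passed an adjusted p of 0.05, with 7.44% lower and 8.22% higher in Tc17 cells. In bulk RNA, fewer cells that express a gene and less RNA per cell cannot be told apart.

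*Nlrc5* and *Psmb9* fell in Tc17 cells, and no member rose. *Nlrc5* fell by 0.88 ± 0.16 (1.84-fold, limma adjusted p = 0.00381) and *Psmb9* by 0.54 ± 0.14 (1.46-fold, limma adjusted p = 0.0233). The other 6 tested members, among them *B2m*, both transporter genes and *Psmb8*, did not pass the threshold. The 2 of 8 that were lower stand beside 7.44% of all tested genes, and the 0 of 8 that were higher beside 8.22%. At an unadjusted limma p under 0.05, 3 of the 8 were lower and 0 higher, beside 12.8% and 14.2% of all tested genes. The median log2 difference of the 8 members was -0.23, against 0.02 over all tested genes. It was -0.10 without Tc17 replicate 1.

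**Figure D1:**
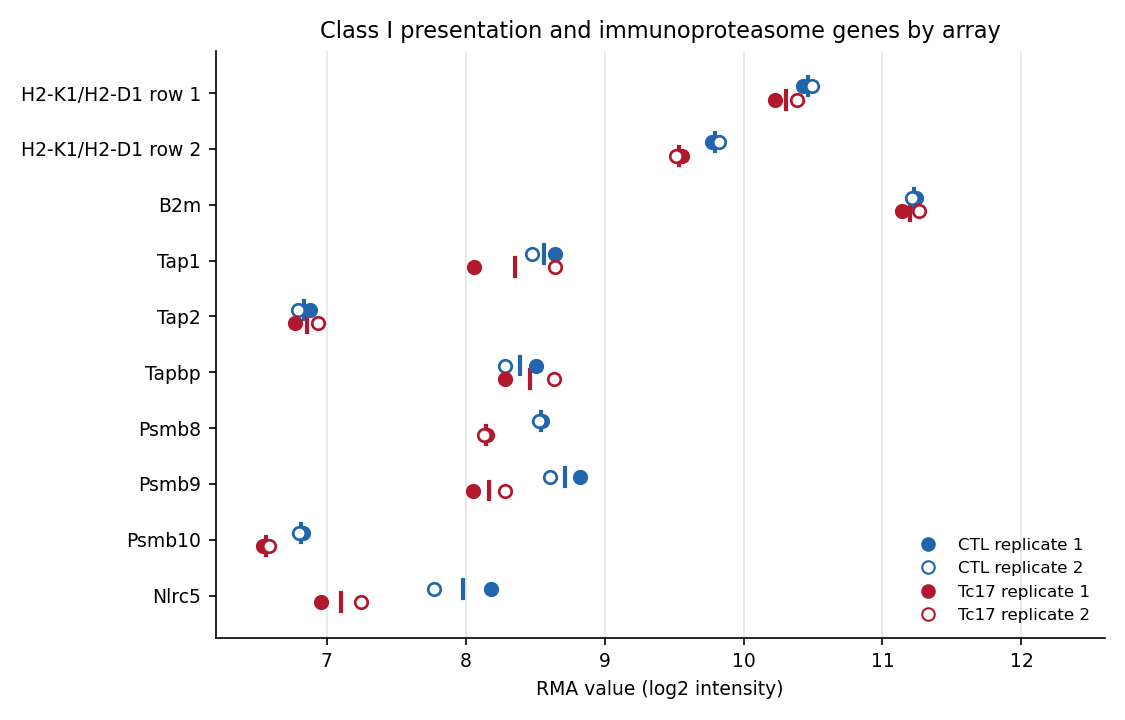
RMA values (horizontal axis, log2 intensity) of the 8 members with a row of their own and of the 2 rows shared by *H2-K1* and *H2-D1*. Each circle is 1 array (CTL in blue, Tc17 in red; replicate 1 filled, replicate 2 open) and each vertical bar a group mean. *Nlrc5*, *Psmb8*, *Psmb9*, *Psmb10* and both shared rows lie lower on both Tc17 arrays than on both CTL arrays, while *B2m*, *Tap1*, *Tap2* and *Tapbp* overlap. Levels of different rows cannot be compared with each other.

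None of the chains of the class I molecule itself passed the threshold. The first row shared by *H2-K1* and *H2-D1* (probe set 10450075) read 10.43 and 10.49 on the CTL arrays and 10.23 and 10.39 on the Tc17 arrays. The second (probe set 10444780) read 9.77 and 9.82 against 9.56 and 9.51. In both rows each Tc17 array was below each CTL array. In a fit that also took rows with several symbols, an alternative chosen after seeing the data, the first differed by -0.15 ± 0.13 (limma adjusted p = 0.523) and the second by -0.26 ± 0.12 (limma adjusted p = 0.208), and neither passed. *B2m*, the light chain that every class I molecule needs, was at 11.24 and 11.21 in CTLs and at 11.14 and 11.26 in Tc17 cells. Its arrays overlapped. The difference was -0.03 ± 0.13 (limma adjusted p = 0.934), with a 95% interval from -0.31 to 0.25.

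The genes that move peptides into the endoplasmic reticulum and load them did not pass either. *Tap1*, which encodes a chain of the transporter, was at 8.65 and 8.48 in CTLs and at 8.06 and 8.65 in Tc17 cells. The Tc17 arrays thus lay on both sides of the CTL mean, and the difference of -0.21 ± 0.18 (limma adjusted p = 0.525; 95% interval from -0.61 to 0.19) became 0.08 without Tc17 replicate 1 and -0.51 without Tc17 replicate 2. *Tap2*, the other chain, read 6.88 and 6.79 against 6.77 and 6.94. Its groups overlapped, at a difference of 0.02 ± 0.13 (limma adjusted p = 0.953; 95% interval from -0.27 to 0.31). *Tapbp*, which encodes tapasin, the bridge between transporter and empty class I molecule, read 8.51 and 8.28 against 8.28 and 8.64. It differed by 0.07 ± 0.15 (limma adjusted p = 0.844; 95% interval from -0.27 to 0.40). Another 2 rows name *Tapbp* with the ribosomal gene *Rps3a1*. They were brighter but were not used, and their differences were -0.08 and -0.09.

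The 3 immunoproteasome subunits were each lower on both Tc17 arrays than on both CTL arrays, as was *Nlrc5*. Of the 8 tested members 4 had such non-overlapping groups, all of them lower and 0 higher. Of all tested genes 54.4% had non-overlapping groups, 24.8% being lower and 29.6% higher. *Psmb9*, which encodes the subunit LMP2, was at 8.82 and 8.61 in CTLs and at 8.06 and 8.28 in Tc17 cells. *Psmb8*, which encodes LMP7, was at 8.55 and 8.53 against 8.16 and 8.13. Here the replicates lay closer together than those of *Psmb9*. The difference of *Psmb8* was -0.40 ± 0.12 (limma adjusted p = 0.0549), just outside the threshold. *Psmb10*, which encodes MECL-1, was at 6.83 and 6.80 against 6.54 and 6.58. It differed by -0.25 ± 0.13 (limma adjusted p = 0.227). The call of *Psmb9* was lost without CTL replicate 1 (-0.44), without Tc17 replicate 1 (-0.43), with cyclic loess (-0.49) with every row of the table tested and at the thresholds of the study's RNA-seq, whereas *Psmb8* passed with a filter at the median and with an intensity trend and robust moderation.

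*Psmb9*, *Tap1*, *Psmb8* and *Tap2* are consecutive coding genes in the class II region of the MHC. Along this order the differences were -0.54, -0.21, -0.40 and 0.02. The pair that shares the promoter printed above also differed in its spread, since *Tap1* was level with CTL replicate 1 on Tc17 replicate 2 while *Psmb9* was lower on both. Whether the changes of *Psmb9* and *Tap1* differ from each other was not tested.

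*Nlrc5* was the member with the largest difference. It belongs to the NOD-like receptor family and, together with the RFX complex, activates the promoters of class I, *B2m*, *Tap1* and *Psmb9*. Its brightest row (probe set 10574149) read 8.18 and 7.78 in CTLs and 6.96 and 7.24 in Tc17 cells. Both Tc17 arrays were below both CTL arrays, with differences from -1.22 to -0.53 over the 4 array pairs.

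The array carries 19 probe sets for *Nlrc5*, with mean levels from 4.41 to 7.54. All 19 were lower in Tc17 cells, with a median difference of -0.76. In 18 of them both Tc17 arrays lay below both CTL arrays, as in 24.8% of all tested genes. The smallest differences were -0.20 and -0.21, and the remaining 17 ranged from -0.48 to -1.01. Tc17 replicate 2 was above Tc17 replicate 1 in 17 of the 19, and CTL replicate 1 above CTL replicate 2 in 17. The probe sets read the same RNA on the same arrays and are not replicates. When every row of the table was tested, 0 of the 19 passed (lowest limma adjusted p = 0.0519). With the mean of all 19 probe sets as the level of the gene, *Nlrc5* fell by 0.72 (limma adjusted p = 0.00758). The call of *Nlrc5* was kept without each array in turn and was lost when every row of the table was tested (limma adjusted p = 0.106).

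**Figure D2:**
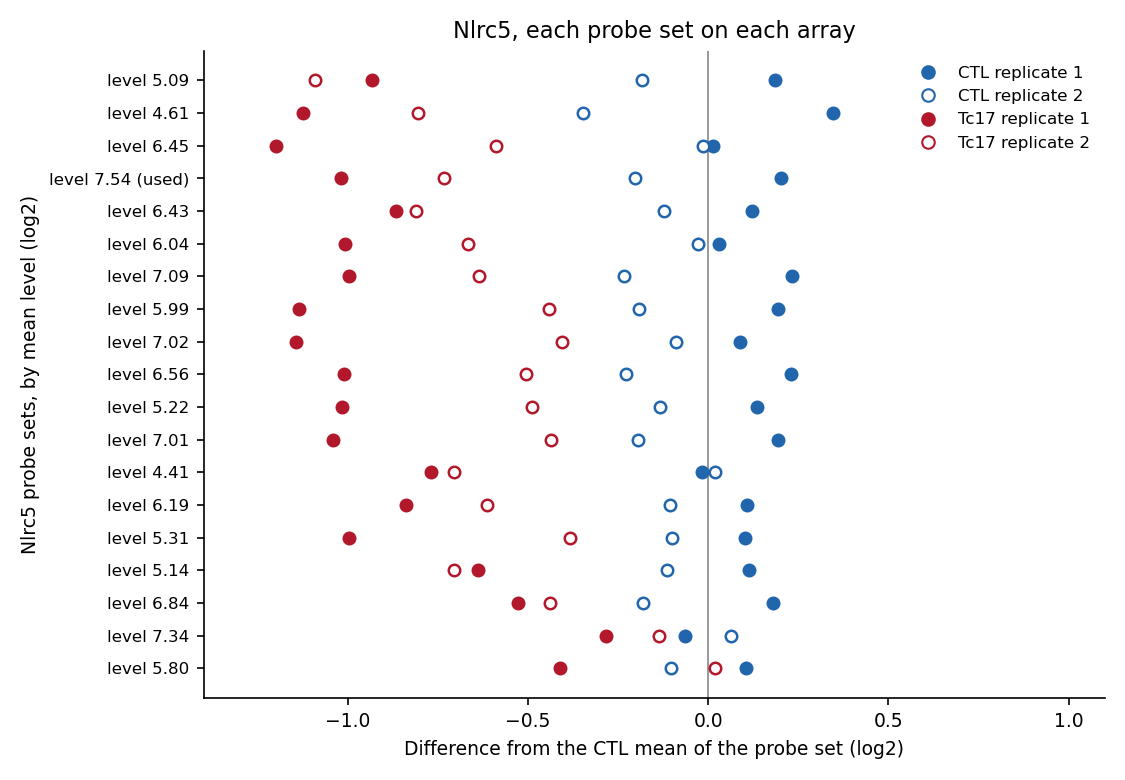
Each of the 19 *Nlrc5* probe sets on each array, as the difference (horizontal axis, log2) from the mean of its CTL arrays. Each circle is 1 array (CTL in blue, Tc17 in red; replicate 1 filled, replicate 2 open), and the labels give each probe set's mean level over the 4 arrays. Both red circles lie left of both blue circles in 18 rows, the exception being the row with the smallest difference (-0.20), and the filled red circle is the leftmost in 17 rows.

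Read array by array, lower in all 4 array pairs is the same condition as both Tc17 arrays lying below both CTL arrays. The split of the members is therefore the one already given and adds no support. Of the 8 genes and 2 shared rows, 6 met it: *Nlrc5*, the 3 immunoproteasome genes and both *H2-K1* and *H2-D1* rows. Of all tested genes, 24.8% met it. The other 4, *B2m*, *Tap1*, *Tap2* and *Tapbp*, were lower in some pairs and higher in others. All 10 were below the CTL mean on Tc17 replicate 1, against 6 of 10 on Tc17 replicate 2. The shares of all tested genes for these counts are not given here. In 8 of the 10, Tc17 replicate 2 was above Tc17 replicate 1, an order seen in 45.1% of all tested genes. The largest such gaps were those of *Tap1* (0.59) and *Tapbp* (0.35).

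The constitutive subunits *Psmb5*, *Psmb6* and *Psmb7*, whose places the immunoproteasome subunits take, were also lower on both Tc17 arrays than on both CTL arrays. Over all tested genes, 24.8% were lower in this way. *Psmb5* differed by -0.28 ± 0.13 (limma adjusted p = 0.186), *Psmb6* by -0.43 ± 0.13 (limma adjusted p = 0.0508) and *Psmb7* by -0.43 ± 0.15 (limma adjusted p = 0.0767). None of the 3 passed in limma, and 2 had an unadjusted p under 0.05, beside 12.8% of all tested genes in this direction. The differences of all 6 catalytic subunits thus lay between -0.54 and -0.25.

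Within an array, the difference between an immunoproteasome subunit and its counterpart shows whether the pair moved unequally. *Psmb8* minus *Psmb5* was 0.86 and 0.85 on the CTL arrays and 0.70 and 0.78 on the Tc17 arrays, lower on both. The change was -0.12. *Psmb9* minus *Psmb6* was -0.11 and -0.12 on the CTL arrays and -0.35 and -0.12 on the Tc17 arrays. This change of -0.12 rested on Tc17 replicate 1, and was -0.0017 without it. *Psmb10* minus *Psmb7* changed by 0.18, with overlapping arrays. It ranged from 0.021 (Tc17 replicate 2 left out) to 0.34 (Tc17 replicate 1 left out), and was 0.034 when CTL replicate 2 and 0.33 when CTL replicate 1 was left out. In two-sided exact permutation tests over the 4 arrays, p was 0.333 for the first pair and 0.667 for the others, and 0.667 for all 3 pairs after Benjamini-Hochberg adjustment. The smallest p that 2 against 2 arrays allow is 0.333, so these tests could not pass the threshold.

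**Figure D3:**
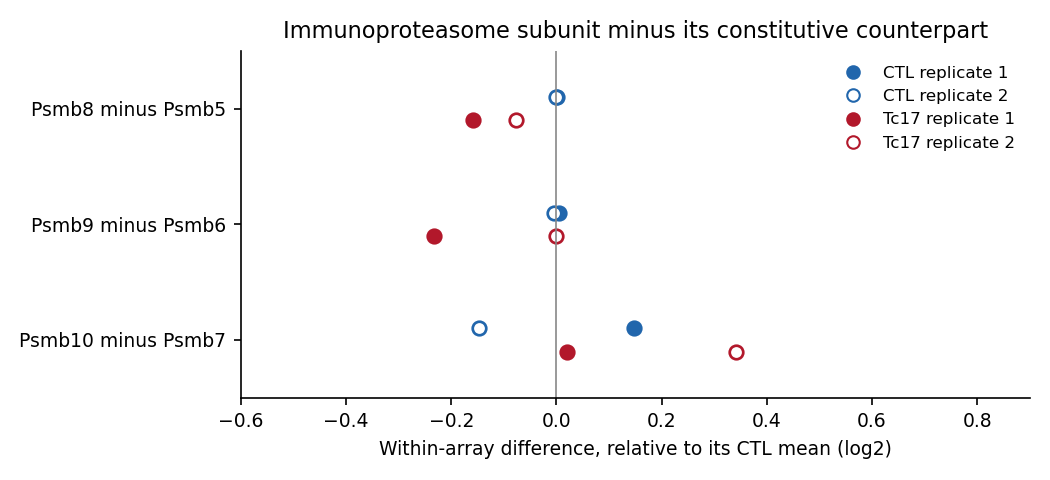
Log2 difference between each immunoproteasome subunit and the constitutive subunit it replaces, within each array, relative to the mean of the CTL arrays (horizontal axis). Each circle is 1 array (CTL in blue, Tc17 in red; replicate 1 filled, replicate 2 open). The 3 pairs changed by -0.12, -0.12 and 0.18, each smaller in size than the differences of the 6 subunits themselves (-0.54 to -0.25).

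Of 9 genes of proteasome activators and assembly, 3 fell and none rose (0 also at an unadjusted p under 0.05), with a median of -0.26. Over all tested genes, 7.44% fell and 8.22% rose. *Psme2*, which encodes a subunit of the interferon-induced PA28 activator, read 8.58 and 8.67 in CTLs and 8.29 and 7.95 in Tc17 cells. It fell by 0.51 ± 0.15 (limma adjusted p = 0.0352), while its partner *Psme1* differed by -0.26 ± 0.14 (limma adjusted p = 0.281). The assembly chaperone genes *Psmg1* and *Psmg2* fell by 0.66 ± 0.14 (limma adjusted p = 0.00730) and 0.67 ± 0.13 (limma adjusted p = 0.00470). *Pomp*, which encodes a maturation factor of the proteasome, differed by 0.01 ± 0.13. *Psme2* no longer passed when CTL replicate 1 (-0.56), CTL replicate 2 (-0.46) or Tc17 replicate 2 (-0.34) was left out or with cyclic loess (-0.46). *Psmg1* no longer passed when CTL replicate 2 (-0.58) or Tc17 replicate 2 (-0.55) was left out.

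Among 11 genes of peptide loading and trimming, 5 fell and none rose (0 also at an unadjusted p under 0.05), with a median of -0.33. Over all tested genes, 7.44% fell and 8.22% rose. *Lap3*, a leucine aminopeptidase of the cytosol, was at 6.51 and 6.69 in CTLs and at 5.75 and 5.73 in Tc17 cells, and fell by 0.86 ± 0.13 (limma adjusted p = 0.00111). *Thop1*, which encodes a cytosolic peptidase that destroys peptides, fell by 0.72 ± 0.13 (limma adjusted p = 0.00356). *Hspa5*, the general chaperone BiP of the endoplasmic reticulum, fell by 0.75 ± 0.13 (limma adjusted p = 0.00194). *Tapbpl*, which encodes the peptide editor TAPBPR, was at 7.44 and 7.45 against 6.78 and 6.84. It fell by 0.64 ± 0.13 (limma adjusted p = 0.00509), and its replicates lay closer together than those of its relative *Tapbp*. *Calr*, a chaperone of the loading complex, fell by 0.53 ± 0.13 (limma adjusted p = 0.0150). It no longer passed when CTL replicate 1 (-0.49), Tc17 replicate 1 (-0.51) or Tc17 replicate 2 (-0.54) was left out. *Pdia3*, another protein of that complex, differed by 0.13 ± 0.13 and the trimming enzyme gene *Erap1* by -0.27 ± 0.15.

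**Figure D4:**
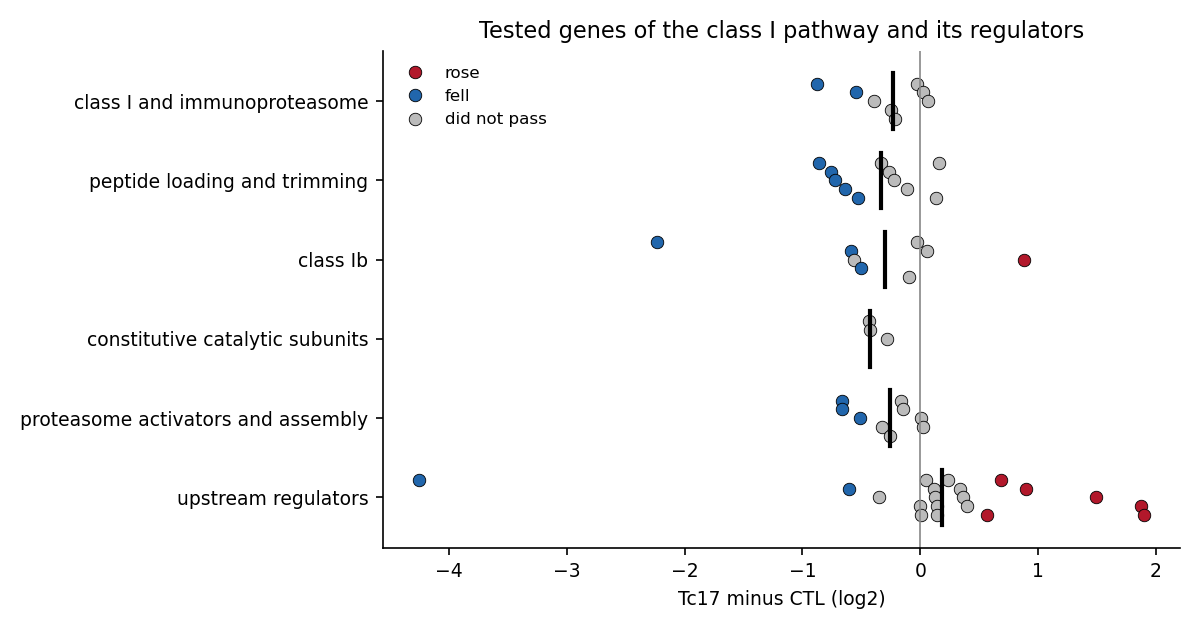
Tested genes of 6 lists by their Tc17 minus CTL difference (horizontal axis, log2). Red points rose, blue points fell and grey points did not pass at a limma adjusted p under 0.05, and black bars are medians. The medians of the first 5 lists lie between -0.43 and -0.23, and that of the regulators at 0.19. The point at -4.25 is *Ifng*.

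Class Ib genes are less variable relatives of *H2-K1* and *H2-D1*. Of 15 listed, 8 were tested with a row of their own, and 3 of these fell and 1 rose, with a median of -0.30. Over all tested genes, 7.44% fell and 8.22% rose. *H2-M2* was under the filter level, 5 occurred only in shared rows and *H2-Q7* was not analysed here. *H2-T24*, a gene of the T region, was at 6.39 and 6.10 in CTLs and at 3.69 and 4.34 in Tc17 cells. It fell by 2.23 ± 0.20 (4.70-fold, limma adjusted p = 2.87e-05), a call kept under each alternative setting tried. The difference was -1.91 without Tc17 replicate 1. *H2-Q4*, of the Q region, fell by 0.59 ± 0.15 (limma adjusted p = 0.0208), and *H2-M3*, whose product presents formylated bacterial peptides, by 0.50 ± 0.14 (limma adjusted p = 0.0318). Neither passed when a single CTL array was left out. *H2-Q4* also did not pass without Tc17 replicate 1 (-0.40) or with cyclic loess (-0.53), and *H2-M3* did not without Tc17 replicate 2 (-0.37). *Mr1*, which presents vitamin B metabolites to MAIT cells, went the other way, from 4.18 and 3.84 to 4.79 and 4.99, and rose by 0.88 ± 0.15 (limma adjusted p = 0.00229). *Cd1d1*, which presents lipids, differed by 0.06 ± 0.18.

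Some class Ib genes, like the classical chains, occurred only in rows with several symbols, which cannot be assigned to a single gene. Of the 5 such rows, 3 fell and 2 did not pass when rows with several symbols were fitted too. Of all 15553 features tested in that fit, 1132 fell and 1231 rose. The row that names *H2-Q6* and *H2-Q8* was at 8.95 and 9.07 in CTLs and at 7.40 and 7.61 in Tc17 cells. In the fit that took such rows, it fell 2.83-fold (limma adjusted p = 4.59e-05), with a 95% interval of the log2 difference from -1.80 to -1.21. The row of *H2-T9*, *H2-T22* and *H2-T10* fell by 0.62 ± 0.17 (limma adjusted p = 0.0363), and that of *H2-T23* and *H2-T-ps* by 0.43 ± 0.12 (limma adjusted p = 0.0401). The row of *H2-Q1* and *H2-Bl* differed by -0.0055 ± 0.13 (limma adjusted p = 0.988) and that of *H2-T3* and *H2-T18* by 0.06 ± 0.13 (limma adjusted p = 0.828). *H2-T23* encodes Qa-1, the ligand of the CD94-NKG2A receptor. Near-identical class I genes can share probes, so none of these values is certain for a single gene.

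**Figure D5:**
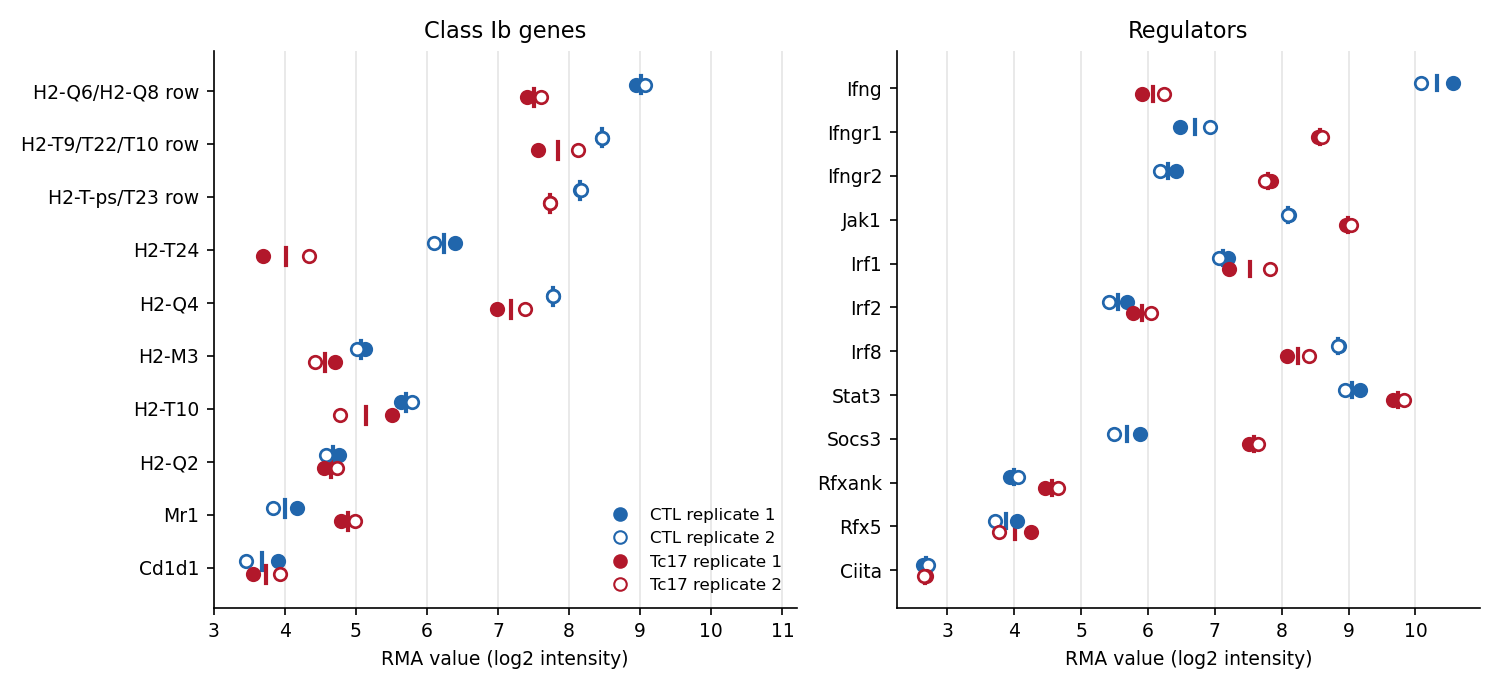
RMA values (horizontal axis, log2 intensity) of class Ib genes and rows shared by several of them (left) and of regulators of the pathway (right). Each circle is 1 array (CTL in blue, Tc17 in red; replicate 1 filled, replicate 2 open) and each vertical bar a group mean. *H2-T24* and the *H2-Q6*/*H2-Q8* row lie far lower on both Tc17 arrays, *Mr1* and the IFN-γ receptor genes higher, and *Ciita* stays near 2.7 on each array.

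Regulators of the pathway went both ways. Of 20 tested, 2 fell and 6 rose, with a median of 0.19. Over all tested genes, 7.44% fell and 8.22% rose. *Ifng*, which encodes the cytokine itself, was at 10.57 and 10.08 in CTLs and at 5.91 and 6.24 in Tc17 cells. It fell by 4.25 ± 0.18 (19.0-fold, limma adjusted p = 1.07e-07), while both cultures contained the blocking antibody. The genes of its receptor rose, *Ifngr1* by 1.87 ± 0.16 (limma adjusted p = 2.13e-05) and *Ifngr2* by 1.49 ± 0.14 (limma adjusted p = 3.56e-05). *Ifngr1* was at 6.48 and 6.93 in CTLs and at 8.55 and 8.61 in Tc17 cells, with no overlap. The receptor-associated kinase gene *Jak1* rose by 0.90 ± 0.13 (limma adjusted p = 6.45e-04).

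The interferon-induced factor gene *Irf1*, a known activator of *Tap1*, *Psmb9* and *Nlrc5*, was at 7.19 and 7.06 in CTLs and at 7.22 and 7.83 in Tc17 cells. It differed by 0.40 ± 0.18 (limma adjusted p = 0.190), by 0.09 without Tc17 replicate 2 and by 0.70 without Tc17 replicate 1, where it passed. Averaged over all its probe sets it differed by 0.17. *Irf2* differed by 0.36 ± 0.15 (limma adjusted p = 0.136). *Irf8* fell by 0.60 ± 0.14 (limma adjusted p = 0.0151), but not when CTL replicate 1 (-0.59), CTL replicate 2 (-0.61) or Tc17 replicate 1 (-0.43) was left out. *Stat3*, which relays IL-6 signals, rose by 0.68 ± 0.14 (limma adjusted p = 0.00603), and *Socs3*, its feedback inhibitor, by 1.89 ± 0.15 (limma adjusted p = 1.42e-05; 1.13 with the mean of its probe sets).

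NLRC5 binds class I promoters through the RFX complex. Of its 3 genes, *Rfxank* was at 3.93 and 4.05 in CTLs and at 4.47 and 4.65 in Tc17 cells and rose by 0.57 ± 0.13 (limma adjusted p = 0.0139). It did not pass when CTL replicate 1 (0.51) or Tc17 replicate 2 (0.47) was left out. *Rfx5* differed by 0.14 ± 0.18 and *Rfxap* by 0.13 ± 0.12. *Ciita*, the relative of *Nlrc5* that drives class II genes, was dim, at 2.64 to 2.71 on all 4 arrays. *Nfkb1* was not analysed here.

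Markers of cells that carry much class I were examined beside these results. Of 5 B cell markers with a row, 2 were under the filter level and none of the other 3 passed in limma (1 was higher at an unadjusted p under 0.05). The brightest was *Cd79b* (4.53 to 5.14), and their summed linear intensity was 47.1 to 58.6 in CTLs and 59.2 to 61.5 in Tc17 cells. Of 10 markers of myeloid and dendritic cells, *Lyz2*, *Cd14* and *Adgre1* were under the filter level on average, *H2-Ab1* rose by 1.05 ± 0.17 (limma adjusted p = 0.00171) and *Cd74* fell by 0.96 ± 0.22 (limma adjusted p = 0.0127). The summed intensity of that list was 133 to 174 in CTLs and 206 to 231 in Tc17 cells, and *H2-Ab1* was its brightest gene on each array. The higher sum in Tc17 cells came from *H2-Ab1*, the only tested gene of the list that rose. The median difference of the 7 tested genes was 0.02, and 3 of the 7 had a negative difference, among them *H2-Aa* (-0.11 ± 0.23). The sum therefore does not show a rise of the list as a whole. All 3 NK cell markers were under the filter level. Of 7 T cell markers with a row, 4 rose and *Cd2* fell, the brightest being *Cd3g* (9.62 to 10.66). Over all tested genes, 8.22% rose and 7.44% fell. *Lck* was not analysed here. Of the CD4 T cell markers, *Zbtb7b* fell by 0.63 ± 0.14 (limma adjusted p = 0.00923). The part of other cells in the class I differences was not tested.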

How the data were processed

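CD8+ T cell cultures were measured on Affymetrix arrays, 1 per sample, in 2 CTL and 2 Tc17 samples grouped by their titles. Per the labels, the RNA went through 2 rounds of cDNA synthesis. The authors deposited RMA intensities on a log2 scale, that is, background-corrected, quantile-normalised and summarised per probe set. The RMA version and a genome build were not stated in the sources read. The log base was taken from the range of 1.18 to 13.70. A shift common to all transcripts cannot be seen in such values, and differences of dim rows are compressed. The number of arrays limits the precision.

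Of 35557 rows, 21789 had 1 gene symbol, 1621 several and 12147 none in the platform annotation. Each gene was represented by its brightest row with 1 symbol, genes with a mean under the 25th percentile (2.59) were left out, and 14953 were fitted in limma 3.58.1 (R 4.3.3), two-sided and unpaired, with Benjamini-Hochberg adjustment over all of them and a threshold of 0.05. The test was also run on simulated data, drawn with normal noise from the spread that limma itself had fitted. Such data meet the assumptions of the test, so this run cannot check the calls made here. Members and lists were chosen with earlier results of these data known, and no value was adjusted over a list alone. The text names all members, every gene past the threshold in the 5 related lists, *Ifng*, *Irf1*, *Irf2*, *Rfx5* and *Ciita* whether or not they passed, and the brightest marker of other lists. Further genes were chosen after their values were seen. A planned comparison of protein sequences was not run.

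The settings varied were the filter (none, or the median), cyclic loess, median centring, robust moderation with an intensity trend, the mean of a gene's rows, every row of the table, the thresholds of the study's RNA-seq (0.01 and a log2 difference of 0.75), the replicate number as a block, each array left out in turn, and, added later, rows with several symbols. Without an array, the lone sample of its group is assumed to vary like the others. Motifs and alignments used Python 3.11.15 and biopython 1.88, and plots matplotlib 3.10.9.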

Additional observations from a re-analysis of the deposited data

How the results depend on the processing

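The number of arrays limits these results, and signal near background limits those of dim genes such as *Ciita*. Small differences of single genes were sensitive to the array left out. The count of members lower in Tc17 cells, 2, was 1 with cyclic loess, 0 with every row of the table, 1 at the thresholds of the study's RNA-seq and 1 to 2 without single arrays. No member was higher under the alternatives tried. The members' median of -0.23 ranged from -0.33 to -0.10 without single arrays. *B2m* changed sign with cyclic loess (0.0077) and ranged from -0.084 to 0.032 without single arrays, *Tap1* from -0.51 to 0.083, *Tap2* from -0.065 to 0.11, *Tapbp* from -0.11 to 0.24, *Rfx5* from -0.099 to 0.38 and *Ciita* from -0.038 to 0.030. None of these passed in any alternative run.

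With every row of the table, 506 of all genes were called instead of 2342, 2 instead of 5 genes of loading and trimming fell (4 to 5 without single arrays), 1 instead of 3 class Ib genes fell and 0 instead of 1 rose, 0 instead of 3 genes of activators and assembly fell, and 1 instead of 2 regulators fell and 4 instead of 6 rose. *Stat3* (limma adjusted p = 0.0938) and *Rfxank* (limma adjusted p = 0.116) were the calls lost among the latter. At the thresholds of the study's RNA-seq these counts were 919, 2, 1, 0 for activators and assembly and 1 for regulators that fell, and 4 rose, again without *Stat3* and *Rfxank*. Without single arrays all genes called ranged from 1421 to 1924, class Ib genes that fell from 1 to 3, genes of activators and assembly from 1 to 3, regulators that fell from 1 to 2 and regulators that rose from 5 to 7. Constitutive subunits that fell numbered 1 with a filter at the median, 2 with robust moderation on an intensity trend and 1 with the mean of the probe sets. Within-array pairs kept their direction in the alternatives run, from -0.16 to -0.077, -0.23 to -0.0017 and 0.021 to 0.34 without single arrays.

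The labels do not say whether equal replicate numbers pair the samples, and the samples were treated as unpaired. Deviations of equal numbers correlated at 0.02, which cannot settle this with 2 arrays per group. With the replicate number as a block 2322 genes were called, and 2 members were again lower. Causes of these dependencies were not tested.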
